A study of Mus musculus with 6 samples.

Results

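Dendritic cell subset genes were examined in RNA from CT26.WT tumors of mice with or without IFN-γ stimulation. The set was 10 genes, found by symbol in the count table, of 55487 genes listed: Xcr1, Clec9a, Batf3 and Itgae of type 1 conventional dendritic cells (cDC1), Flt3 and Zbtb46 of the wider lineage, Ccr7 and Fscn1 of mature dendritic cells, Cd209a of cDC2 or monocyte-derived cells, and Siglech of plasmacytoid dendritic cells (pDC). None of the 10 passed the adjusted threshold in either direction. Xcr1 and Clec9a had the highest fold changes, 2.02-fold and 1.89-fold in favor of the IFN-γ stimulation group. Clec9a, Flt3 and Itgae stood higher in all 3 stimulated tumors than in all 3 controls, as did 7.62% of all genes tested. Ccr7, Fscn1, Cd209a and Siglech had fold changes between 0.756 and 1.11.

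CT26.WT is a colon carcinoma cell line of the BALB/c strain, and the labels give its genotype as WT. The hosts were immunocompetent male BALB/c mice, bought at 4 weeks of age, that carried CT26.WT cells under the skin of the back. Mice of the IFN-γ stimulation group (n = 3 tumors) received 100 µL of cytokine at 100 ng/ml into the tail vein, repeated at 48 h intervals, and mice of the control group (n = 3 tumors) received 100 µL of PBS by the same route. The age at collection was not stated, and tumors were followed to a set diameter rather than to a set day. The labels do not tie the tumors to separate mice, so the spread between tumors may hold technical as well as animal variation. The question was how stimulation changed gene expression in tumors of hosts with an intact immune system.

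Dendritic cells take up antigen and present it to T cells. cDC1 depend on the transcription factor BATF3, carry the chemokine receptor XCR1 and the dead-cell receptor CLEC9A, and are known for presenting tumor antigen to CD8+ T cells. cDC2 mainly serve CD4+ T cells, pDC are known for type I interferon, and maturing cells gain CCR7 and move to lymph nodes. IFN-γ is known to raise antigen presentation genes in many cell types.

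The 6 libraries held 15759300 to 17559680 counts, so 3 counts, the limit that a count of 0 allows, stood at 0.169 to 0.188 CPM (counts per 1000000 counts of a library, scaled with edgeR's TMM factors). Members had from 21 counts (Clec9a in control tumor 1) to 3073 counts (Fscn1 in control tumor 3) in a tumor, so all 10 were detected in every tumor. IFN-γ tumor 3 stood apart from the other stimulated tumors. Its 5 leukocyte markers summed to 481 CPM against 841 and 869 CPM in the other stimulated tumors and 483 to 598 CPM in the controls, and its 5 skin epithelium markers summed to 69.3 CPM against 2.75 to 12.3 CPM in the other 5 tumors. Of the 5 epithelial markers for the tumor cells, Krt18 stood at 6.41 to 10.4 CPM and Krt8 at 0.186 to 12.1 CPM, and the other 3 were below the filter on low counts. Control tumor 1 was alike in part, with a leukocyte sum of 483 CPM and the next highest skin sum, 12.3 CPM. The fold change of each member is therefore given with and without IFN-γ tumor 3. Those of the cDC1 members and Flt3 are also given without control tumor 1.

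**Figure D1:**
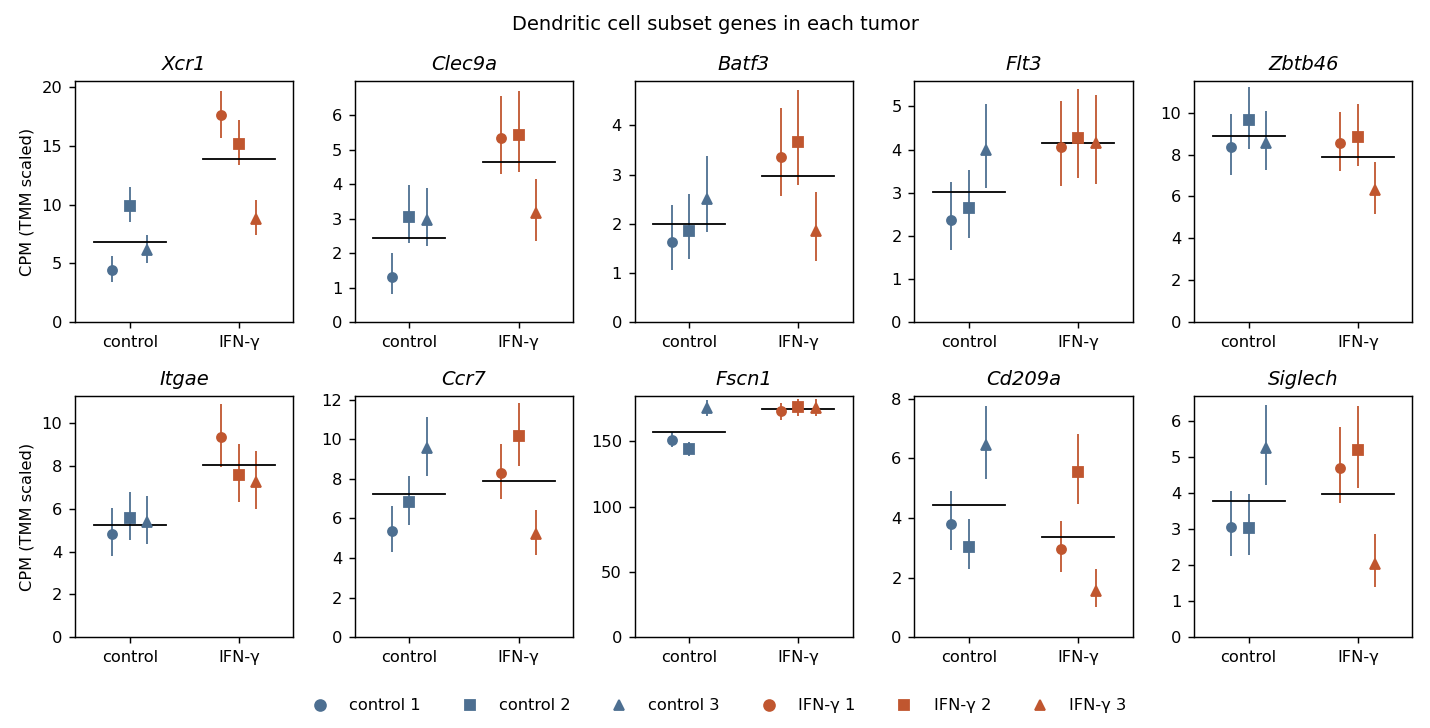
Expression of the 10 dendritic cell subset genes in each tumor, in CPM on the vertical axis (each panel starts at 0 and has its own scale). Points are single tumors, whiskers are 95% Poisson intervals that cover counting error only, and horizontal lines are group means; Xcr1 and Clec9a stood highest in IFN-γ tumors 1 and 2, and Zbtb46, Ccr7, Cd209a and Siglech were lowest in IFN-γ tumor 3.

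In edgeR's quasi-likelihood test over 15114 genes, 17 genes (0.112%) passed an adjusted p of 0.05 in either direction, and 0 of the 10 members did, with adjusted p from 0.325 to 0.975. DESeq2 and limma-voom also called 0 members, with smallest adjusted p of 0.0893 and 0.347. At an unadjusted p under 0.05, Xcr1, Clec9a and Itgae stood higher after stimulation, 3 of 10 members, against 5.74% of all genes tested in that direction. Clec9a, Flt3 and Itgae had every stimulated tumor above every control, again 3 of 10, against 7.62% of all genes, and 0 members had every stimulated tumor below. The fold change was above 1 for 8 members and below 1 for 2, with a median log2 fold change of 0.31 against 0.0015 over all genes tested. These counts describe 10 genes chosen with earlier results known, and no member passed the test on its own.

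Xcr1 (ENSMUSG00000060509, chr9:123852315-123862029 of GRCm38, minus strand) encodes the receptor for XCL1, through which cDC1 are drawn to natural killer (NK) cells and CD8+ T cells. Control tumors 1, 2 and 3 had 4.44, 9.92 and 6.11 CPM of Xcr1, and the IFN-γ tumors, in the same order, had 17.6, 15.1 and 8.78 CPM. IFN-γ tumors 1 and 2 stood above all controls, and IFN-γ tumor 3 lay below control tumor 2, so the groups overlapped. The means were 6.83 ± 2.81 and 13.8 ± 4.55 CPM (SD, n = 3 each), a log2 fold change of 1.02 (SE 0.34, 95% interval 0.25 to 1.79), with an edgeR adjusted p of 0.371. In the fit without IFN-γ tumor 3 it was 1.25 with an adjusted p of 0.0573, the smallest of any member in any fit. Over the fits that each left out a tumor it ran from 0.79 (without control tumor 1) to 1.39 (without control tumor 2). Its interval covered 0 without control tumor 3 and without IFN-γ tumor 1.

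Clec9a (ENSMUSG00000046080, chr6:129408862-129424763, plus strand) encodes DNGR-1, the receptor by which cDC1 recognize filamentous actin of dead cells. The control tumors gave 1.31, 3.04 and 2.97 CPM and the IFN-γ tumors gave 5.34, 5.44 and 3.15 CPM. Every stimulated tumor stood above every control, but the nearest pair, IFN-γ tumor 3 (95% Poisson interval 2.35 to 4.15 CPM) and control tumor 2 (2.29 to 3.97 CPM), could not be separated at this depth. Clec9a had a log2 fold change of 0.92 (SE 0.36, interval 0.09 to 1.75), from 2.44 ± 0.979 to 4.64 ± 1.29 CPM (SD, n = 3 each), with an edgeR adjusted p of 0.437. Leaving out IFN-γ tumor 3 gave 1.12 and an adjusted p of 0.135. No other fit that left out a tumor gave a higher value for Clec9a. The lowest, 0.63, came from dropping control tumor 1, with an interval that covered 0 (-0.09 to 1.34). Dropping stimulated tumor 1 (-0.19 to 1.81) or 2 (-0.18 to 1.76) also gave an interval that covered 0. The interval stayed above 0 in the remaining fits of this kind. With the replicate number as a block it covered 0 (-0.04 to 1.94). Clec9a shares 184 exon bases with Clec1b on the same strand, and Clec1b had 7 counts in the 6 tumors together.

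The promoters of these genes are shown because they had the highest fold changes, with that of Siglech, whose group means were near each other, beside them. The sequences are from RefSeq on GRCm38.p6, 5′ to 3′ on the strand of the gene, and end at or just before its start. The Xcr1 window is chr9:123862030-123862279 (minus strand), the Clec9a window chr6:129408612-129408861 (plus strand) and the Siglech window chr7:55767934-55768177 (plus strand). Capitals mark a match to the gamma interferon activation site (GAS).
Xcr1: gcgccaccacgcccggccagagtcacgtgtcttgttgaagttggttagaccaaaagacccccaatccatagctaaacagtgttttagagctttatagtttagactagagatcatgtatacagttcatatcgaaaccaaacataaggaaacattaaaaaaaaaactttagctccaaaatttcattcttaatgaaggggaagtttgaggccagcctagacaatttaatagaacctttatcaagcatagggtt
Clec9a: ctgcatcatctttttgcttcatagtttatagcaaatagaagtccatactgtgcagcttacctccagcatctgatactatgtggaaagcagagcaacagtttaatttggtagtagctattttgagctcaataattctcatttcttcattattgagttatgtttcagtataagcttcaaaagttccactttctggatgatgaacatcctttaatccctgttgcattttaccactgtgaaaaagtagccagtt
Siglech: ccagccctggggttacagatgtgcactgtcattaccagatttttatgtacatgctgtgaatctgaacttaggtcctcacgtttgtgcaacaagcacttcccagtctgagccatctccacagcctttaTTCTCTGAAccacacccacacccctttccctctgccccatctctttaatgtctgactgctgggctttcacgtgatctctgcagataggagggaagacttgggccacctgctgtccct
Neither the Xcr1 nor the Clec9a window held the GAS letters TTCNNNGAA, the paired IRF letters (GAAA, any 2 bases, GAAA), the PU.1 and IRF letters (GGAA, any 2 bases, GAAA) or the BATF and AP-1 letters TGANTCA on either strand. The Siglech window held 1 GAS match, starting at base -123. The table of promoters matched 8 of the 10 members. In the 250 bases before the RefSeq start, 3 of the 8 held any of the 4 motifs. Batf3 held a GAS match at -239 and Zbtb46 a TGANTCA match at -61. The windows of Batf3 and Zbtb46 lay inside the gene as GENCODE gives it, that of Batf3 with 163 exon bases. Neither of these matches was therefore upstream of the GENCODE start. Among 32851 promoters of that length, 7.02% held a GAS match, 2.98% the paired IRF letters, 2.30% the PU.1 and IRF letters, which may overlap the IRF letters, and 6.75% the BATF and AP-1 letters. A match is a description of the letters and not a measured binding site. Itgae and Ccr7 had no entry in the table.

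Batf3 (ENSMUSG00000026630, chr1:191097847-191108945, plus strand) encodes the transcription factor on which cDC1 depend, and activated T cells make it too. It was counted at 1.63, 1.86 and 2.51 CPM in the controls and at 3.37, 3.67 and 1.86 CPM in the stimulated tumors. IFN-γ tumors 1 and 2 were above all controls and IFN-γ tumor 3 lay at the level of control tumor 2. This gave a log2 fold change of 0.56 (SE 0.33, interval -0.18 to 1.31, edgeR adjusted p = 0.608), and 0.80 without IFN-γ tumor 3 (adjusted p = 0.206). The latter was the highest of the fits that each left out a tumor, and the lowest was 0.38, without IFN-γ tumor 2.

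Itgae (ENSMUSG00000005947, chr11:73090583-73147446, plus strand) encodes CD103, the integrin chain of many tissue cDC1 that T cells resident in epithelia also carry. Its expression was 4.81, 5.58 and 5.37 CPM in the control tumors and 9.35, 7.57 and 7.24 CPM in the stimulated tumors. All 3 stimulated tumors stood above all 3 controls, and IFN-γ tumor 3 was close to IFN-γ tumor 2 rather than to the controls. The control group had 5.26 ± 0.397 CPM and the IFN-γ stimulation group 8.05 ± 1.13 CPM (SD, n = 3 each), a log2 fold change of 0.61 (SE 0.18, interval 0.20 to 1.02). The edgeR adjusted p was 0.325 with all tumors and 0.110 without IFN-γ tumor 3, where the log2 fold change was 0.68. That was the highest of the fits that each left out a tumor, and the lowest was 0.49, without IFN-γ tumor 1. The 8 T cell markers summed to 59.5 to 88.6 CPM in the controls and to 111, 132 and 44.8 CPM in the stimulated tumors, IFN-γ tumor 3 last, so Itgae was above the controls in a tumor where T cell markers were below them. That tumor also had the highest sum of skin epithelium markers, 69.3 CPM against 2.75 to 12.3 CPM in the other 5 tumors. The part of T cells or of skin cells in the Itgae counts was not tested.

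Flt3 (ENSMUSG00000042817, chr5:147330741-147400489, minus strand) encodes the receptor for FLT3 ligand, the growth factor on which dendritic cell development depends. It was at 2.38, 2.65 and 4.0 CPM in the controls and at 4.06, 4.28 and 4.14 CPM after stimulation. The stimulated tumors lay closer together than the controls and just above them, and control tumor 3 (interval 3.12 to 5.05 CPM) and IFN-γ tumor 1 (3.17 to 5.13 CPM) could not be separated at this depth. The difference was 0.46 on the log2 scale (SE 0.25, interval -0.11 to 1.04, edgeR adjusted p = 0.579), and without IFN-γ tumor 3 it was again 0.46 (adjusted p = 0.489). It was 0.72 without control tumor 3 (adjusted p = 0.377) and 0.32 without control tumor 1. Of the ligands in the DC signal list, Flt3l had a log2 fold change of -0.44 (adjusted p = 0.574) and Xcl1, which binds XCR1, 0.62 (adjusted p = 0.655). Ccl19 and Ccl21a, the ligands of CCR7, were at 0.116 CPM or less in every tumor, below the limit that a count of 0 allows.

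Zbtb46 (ENSMUSG00000027583, chr2:181387762-181459426, minus strand) encodes a transcription factor of conventional dendritic cells and their precursors that endothelium also expresses. The controls had 8.38, 9.64 and 8.57 CPM and the stimulated tumors 8.53, 8.86 and 6.31 CPM. IFN-γ tumors 1 and 2 lay among the controls and IFN-γ tumor 3 was the lowest of all. On the log2 scale the difference was -0.17 (SE 0.18, interval -0.58 to 0.24, edgeR adjusted p = 0.815), and -0.04 without IFN-γ tumor 3 (adjusted p = 0.946), and -0.26 without IFN-γ tumor 2. The 5 endothelial markers summed to 229 to 288 CPM in the controls and to 245, 206 and 185 CPM in the stimulated tumors, IFN-γ tumor 3 last, and so lowest in the tumor with the least Zbtb46. How much of the Zbtb46 signal came from endothelium was not tested.

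**Figure D2:**
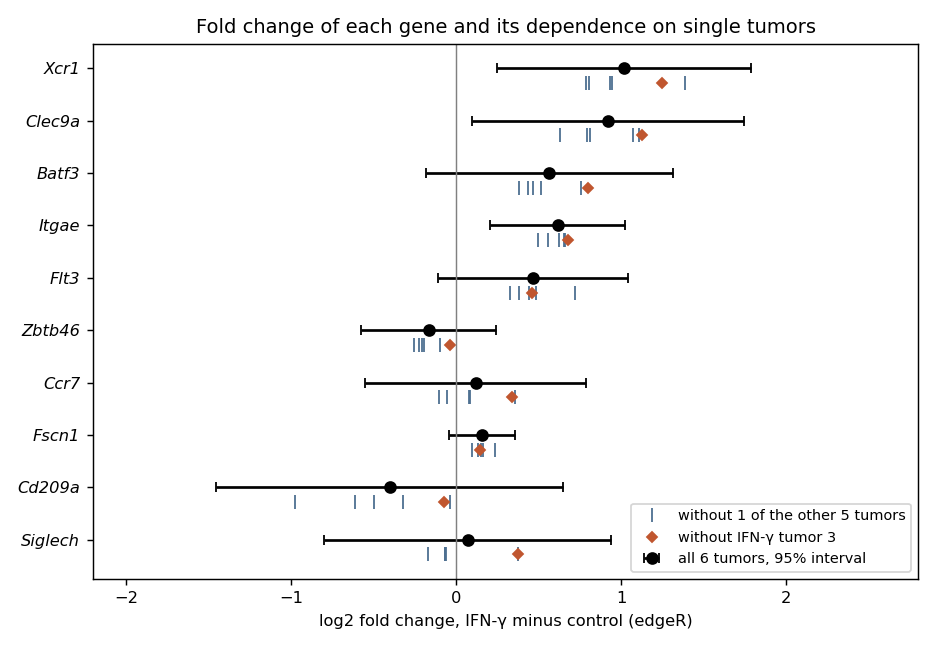
Log2 fold change of each gene, IFN-γ stimulation minus control, on the horizontal axis. Black points and bars are the edgeR estimate with all 6 tumors and its 95% interval, blue ticks are fits without 1 of the other 5 tumors and orange diamonds fits without IFN-γ tumor 3; the intervals of Xcr1, Clec9a and Itgae lay above 0, those of the other 7 members covered 0, and Ccr7 and Siglech changed sign between fits.

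Ccr7 (ENSMUSG00000037944, chr11:99144196-99155077, minus strand) encodes the receptor that guides mature dendritic cells, and also naive T cells, to lymph nodes. It was at 5.38, 6.82 and 9.54 CPM in the controls and at 8.30, 10.1 and 5.19 CPM in the stimulated tumors. IFN-γ tumor 2 was the highest and IFN-γ tumor 3 the lowest of the 6, and the groups overlapped. For Ccr7 the log2 fold change was 0.12 (SE 0.29, interval -0.55 to 0.79, edgeR adjusted p = 0.929). It was 0.34 without IFN-γ tumor 3 (adjusted p = 0.576) and ran from -0.10 to 0.36 over the fits that each left out a tumor, so its direction depended on single tumors.

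Fscn1 (ENSMUSG00000029581, chr5:142960343-142973185, plus strand) encodes fascin, an actin bundling protein of mature dendritic cells that many tumor and mesenchymal cells also make. Its expression was 151, 144 and 176 CPM in the controls and 173, 176 and 176 CPM in the stimulated tumors. Control tumor 3 matched the stimulated tumors and the other controls were lower. The log2 fold change was 0.16 (SE 0.09, interval -0.04 to 0.36, edgeR adjusted p = 0.597), and 0.14 without IFN-γ tumor 3 (adjusted p = 0.522), with 0.10 to 0.24 over the fits that each left out a tumor. The 95% interval of Fscn1 was the narrowest of the 10 and included no fold change above 1.28. Per kilobase of exon, the control group had 52.1 ± 5.48 CPM of Fscn1 (SD, n = 3), far above each of the other 9 members, and the part of tumor cells or fibroblasts in these counts was not tested.

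Cd209a (ENSMUSG00000031494, chr8:3743397-3748984, minus strand) encodes a C-type lectin of the DC-SIGN family found on cDC2 and monocyte-derived cells. The controls gave 3.81, 3.04 and 6.46 CPM and the stimulated tumors 2.96, 5.56 and 1.55 CPM. The highest was a control and the lowest was IFN-γ tumor 3, with wide spread in both groups. The log2 fold change of -0.40 had the widest interval of the 10 (SE 0.46, interval -1.46 to 0.65, edgeR adjusted p = 0.825), and it was -0.07 without IFN-γ tumor 3 (adjusted p = 0.956). Its size rested on single tumors, at -0.04 without control tumor 3, -0.61 without control tumor 2 and -0.97 without IFN-γ tumor 2.

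Siglech (ENSMUSG00000051504, chr7:55768178-55778925, plus strand) encodes a sialic acid binding lectin of pDC that some macrophages also express. It was at 3.06, 3.04 and 5.26 CPM in the controls and at 4.70, 5.19 and 2.04 CPM in the stimulated tumors. Control tumor 3 and IFN-γ tumors 1 and 2 were the high ones, and IFN-γ tumor 3 was the lowest. The log2 fold change was 0.07 (SE 0.38, interval -0.80 to 0.94, edgeR adjusted p = 0.975), 0.37 without IFN-γ tumor 3 (adjusted p = 0.599), and it ran from -0.17 to 0.37 over the fits that each left out a tumor.

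Leaving out IFN-γ tumor 3 called 0 of the 10 members, although 493 of 15487 genes (3.18%) passed the adjusted threshold in that fit, and 4 members, Xcr1, Clec9a, Itgae and Batf3, then had an unadjusted p under 0.05, against 9.6% of all genes higher. Xcr1, Clec9a, Batf3, Flt3 and Itgae, 5 of 10, had both remaining stimulated tumors above every control, against 18.1% of all genes, and the members' median log2 fold change was 0.42 against -0.02 over all genes. The tumor at the bottom of the range differed between the members. It was the same for the 4 cDC1 members, and differed between Flt3 and Zbtb46 and between Ccr7 and Fscn1. Control tumor 1 was the lowest for Xcr1, Clec9a, Batf3, Itgae and Flt3, and IFN-γ tumor 3 was the lowest for Zbtb46, Ccr7, Cd209a and Siglech, with Fscn1 lowest in control tumor 2. Without control tumor 1, the log2 fold change was 0.79 for Xcr1, 0.63 for Clec9a, 0.56 for Itgae, 0.44 for Batf3 and 0.32 for Flt3. All 10 log2 fold changes were lower in that fit than with all 6 tumors.

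Levels can be compared between genes only per length, here CPM per kilobase of the union of exons. In the control group the order from the top was Fscn1, Ccr7 (3.66 ± 1.07), Cd209a (2.8 ± 1.13), Xcr1 (1.53 ± 0.631), Batf3 (1.25 ± 0.288), Itgae (1.15 ± 0.0866), Siglech (1.12 ± 0.376), Zbtb46 (1.04 ± 0.0799), Clec9a (0.742 ± 0.297) and Flt3 (0.487 ± 0.141; SD, n = 3). Below Fscn1, the SD ranges of neighbors in that order overlapped. In the IFN-γ stimulation group Xcr1 stood at 3.11 ± 1.02, above Cd209a at 2.12 ± 1.29, and Clec9a at 1.41 ± 0.392, above Siglech at 1.18 ± 0.501 and Zbtb46 at 0.928 ± 0.163, with overlapping SD ranges between neighbors except Zbtb46 and Flt3 at the low end. The levels of Batf3 (1.85 ± 0.608), Itgae (1.76 ± 0.247), Ccr7 (3.98 ± 1.26) and Flt3 (0.674 ± 0.0174) completed the order below Fscn1 (58.1 ± 0.581). With the longest transcript as the length in place of the exon union, Batf3 (1.80), Zbtb46 (1.67) and Siglech (1.65) stood above Xcr1 (1.53) in the control group, so the middle of the order depended on the length used.

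In bulk tumor RNA, fewer cells of a type and less RNA per cell cannot be told apart. The members were therefore also set against counts from the same tumor, which was decided after seeing the data. Per count of Zbtb46, 5 of the other 9 members had every stimulated tumor above every control (14.9% of all genes had this on the same scale). The denominator, Zbtb46, was itself lowest in IFN-γ tumor 3. Endothelium expresses Zbtb46 too, and its 5 markers summed to 245, 206 and 185 CPM in the stimulated tumors (controls 229 to 288 CPM). The ratio is thus not a value per dendritic cell, and the part of endothelium in it was not tested. Xcr1 had 0.530, 1.03 and 0.713 counts per Zbtb46 count in the controls and 2.06, 1.71 and 1.39 in the stimulated tumors. Here IFN-γ tumor 3 stood above all controls too. Clec9a had 0.157, 0.316 and 0.347 in the controls and 0.626, 0.614 and 0.50 after stimulation, and Itgae had 0.575, 0.579 and 0.627 against 1.10, 0.855 and 1.15. For both genes the groups did not overlap. Flt3 and Batf3 also had no overlap, by narrow margins, the highest control and lowest stimulated tumor being 0.467 and 0.476 for Flt3 and 0.293 and 0.294 for Batf3. Ccr7, Fscn1, Cd209a and Siglech overlapped.

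**Figure D3:**
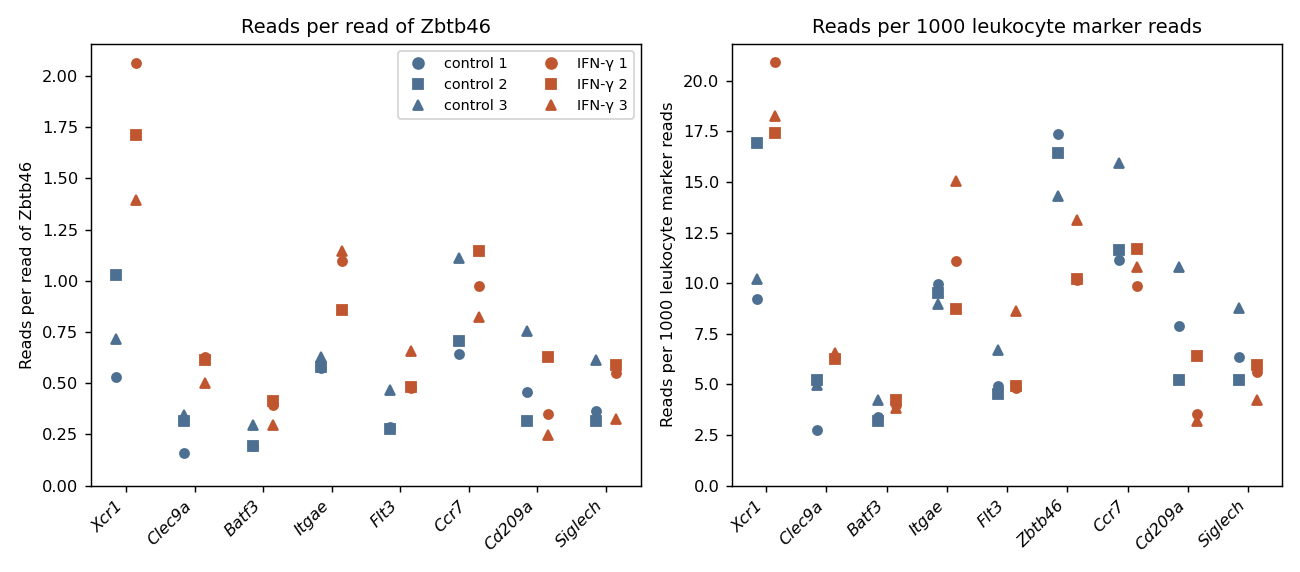
Counts of the members per count of Zbtb46 (left) and per 1000 counts of the 5 leukocyte markers (right) in each tumor, with one point per tumor. Fscn1 is not drawn because its values lie far above the others; Xcr1 and Clec9a had all stimulated tumors above all controls on both scales, and Zbtb46 had all of them below on the right.

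Against the 5 leukocyte markers (Ptprc, Coro1a, Cd52, Laptm5 and Cd53) the picture was narrower. Their summed counts were 7722, 10395 and 10465 in the controls and 14488, 14228 and 7784 in the stimulated tumors. Per 1000 of these counts, Xcr1 had 9.19, 16.9 and 10.2 in the controls and 20.9, 17.4 and 18.2 after stimulation, and Clec9a had 2.72, 5.19 and 4.97 against 6.35, 6.26 and 6.55. These were the 2 members of 10 with every stimulated tumor above every control, against 0.926% of all genes on this scale, and for Xcr1 the margin between control tumor 2 and IFN-γ tumor 2 was small. Zbtb46 was the 1 member with every stimulated tumor below, at 17.4, 16.5 and 14.3 in the controls and 10.1, 10.2 and 13.1 after stimulation (7.56% of all genes were below in this way). When edgeR was fitted with the leukocyte counts as the library size, the log2 fold changes were 0.64 for Xcr1, 0.56 for Clec9a, 0.28 for Itgae, 0.17 for Batf3 and Flt3, -0.14 for Fscn1, -0.26 for Ccr7, -0.36 for Siglech, -0.53 for Zbtb46 and -0.85 for Cd209a (interval -1.61 to -0.09). No member passed, with a smallest adjusted p of 0.755. Cd209a was the 1 member at an unadjusted p under 0.05, in the lower direction, against 4.59% of all genes tested. That scaling moved the median of all genes to -0.30.

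Other genes of each subset, from lists chosen with earlier results of these data known, gave few calls with all 6 tumors. Of 13 further cDC1 genes tested, 0 passed higher and 1 lower, with a median log2 fold change of 0.16. The gene that passed was Nfil3, which encodes a transcription factor needed for the precursors of cDC1 and active in many other cells. Nfil3 was at 28.8, 28.5 and 32.5 CPM in the controls and at 10.9, 11.5 and 12.6 CPM in the stimulated tumors, with no overlap and with IFN-γ tumor 3 alongside the other stimulated tumors. It fell by 1.36 on the log2 scale (SE 0.11, edgeR adjusted p = 0.00431), and by 1.42 without IFN-γ tumor 3 (adjusted p = 0.00271). Among the abundant genes of the list, Cadm1, an adhesion molecule of cDC1, had a log2 fold change of 0.30 (adjusted p = 0.273), Irf8, the transcription factor of cDC1 and pDC, 0.43 (adjusted p = 0.607), and Ly75, which encodes the endocytic receptor DEC-205, -0.03 (adjusted p = 0.941).

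Of 12 cDC2 genes tested, 0 passed in either direction and the median log2 fold change was 0.08, with 0.50 for Sirpa, 0.06 for Zeb2 and -0.15 for Notch2. Of 13 mature dendritic cell genes 0 passed, with a median of 0.21 and values of 0.21 for Tmem123, 0.11 for Cacnb3 and 0.08 for Marcksl1. Of 11 pDC genes 0 passed, with a median of 0.22, and Irf7 had 0.41, Bst2 0.37 and Tcf4, the transcription factor that sets pDC identity, -0.0026. Without IFN-γ tumor 3 the medians were 0.24 for the cDC2 list, 0.30 for the mature list and 0.55 for the pDC list, with 0.35 for the cDC1 list and 0.42 for the members. Of 11 genes of the DC signal list 0 passed, with a median of 0.42, 0.94 for Cxcl9, 0.19 for Csf1 and 0.12 for Kitl, and its median was 0.75 without IFN-γ tumor 3. The highest median of these lists, 1.06, was that of 11 genes shared by dendritic cells and other antigen presenting cells. Most of the 11 belong to MHC class II if Cd74 and the regulator Ciita are counted in. Of the 11, 0 passed, while 8 had an unadjusted edgeR p under 0.05 in the higher direction and 1 in the lower. Cd74, the MHC class II invariant chain, was at 405, 854 and 735 CPM in the controls and at 1517, 1760 and 887 CPM in the stimulated tumors. Each stimulated tumor was above all controls, IFN-γ tumor 3 by little. Its log2 fold change was 1.06 (adjusted p = 0.321), with 0.996 for H2-Aa (adjusted p = 0.314) and 1.07 for H2-Eb1 (adjusted p = 0.355).

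**Figure D4:**
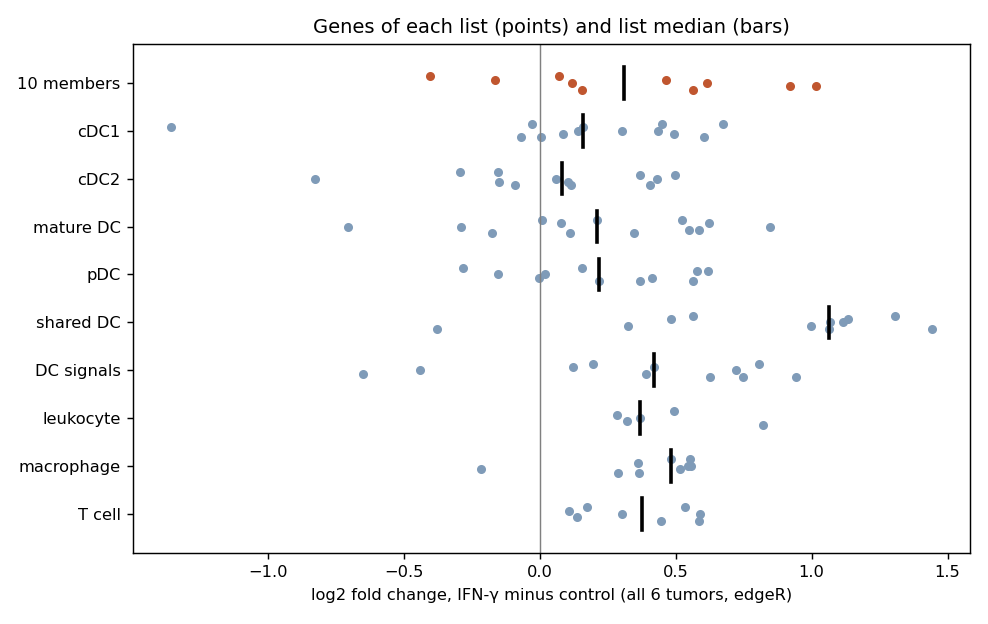
Log2 fold change of the single genes (points) of each list tested, IFN-γ stimulation minus control with all 6 tumors, and the median of each list (black bars). The 10 members are in orange with a median of 0.31, the genes shared with other antigen presenting cells have a median of 1.06, and the lowest point among the cDC1 genes is Nfil3.

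Without IFN-γ tumor 3, 3 of the cDC1 genes passed as higher (Naaa, Cadm1 and Wdfy4), 2 of the cDC2 genes (Clec4a2 and Sirpa), 3 of the mature genes (Cd83, Cd40 and Il15ra), 4 of the pDC genes (Irf7, Tlr7, Tlr9 and Bst2), 6 of the shared genes and 1 DC signal gene (Ccl4), against 2.46% of all genes higher in that fit. Several of these are also expressed by macrophages. The 9 macrophage markers summed to 2093 to 2322 CPM in the controls and to 3002, 3287 and 2220 CPM in the stimulated tumors, with 0 of 9 called with all tumors and 6 without IFN-γ tumor 3. The 5 leukocyte markers had 0 called with all tumors and 4 without IFN-γ tumor 3. The part of macrophages, of other leukocytes and of tumor or stromal cells in the values of these lists was not tested. Genes named for their abundance, such as Tcf4 and Cadm1, may come in large part from cells other than dendritic cells.

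The remaining marker lists had 0 genes called with all tumors. In IFN-γ tumors 1, 2 and 3 in turn, NK cell markers summed to 67.9, 74.3 and 21.2 CPM (controls 28.9 to 44.9), regulatory T cell markers to 19.7, 28.3 and 8.47 CPM (12.9 to 17.8), monocyte markers to 540, 640 and 320 CPM (305 to 454) and B cell markers to 6.79, 8.00 and 6.56 CPM (8.00 to 12.5). Each of these lists was lowest in IFN-γ tumor 3 among the stimulated tumors. Lymph node stroma markers summed to 6.15, 13.9 and 2.97 CPM (11.1 to 32.9), nearly all of it Cxcl13, with Glycam1, Madcam1 and Ccl21a at or near 0. Cd207, listed here as a marker of Langerhans cells of the skin, stood at 1.17 CPM in IFN-γ tumor 3, 0.638 and 0.305 CPM in the other stimulated tumors and 0.0571 to 0.313 CPM in the controls. Its list of 3 genes summed to 121 to 146 CPM in the stimulated tumors and 131 to 138 CPM in the controls, mostly Mfge8. Fibroblast markers summed to 2719 to 3858 CPM (controls 2723 to 3815), neutrophil markers to 5.40 to 12.5 CPM (4.45 to 16.01) and adipocyte markers to 25.5 to 54.1 CPM (5.98 to 11.4), higher in all 3 stimulated tumors. The part of these cells in the members' values was not tested.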

How the data were processed

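RNA sequencing covered 6 subcutaneous tumors grown from CT26.WT cells (3 control, 3 IFN-γ). The deposited table holds raw read counts for each gene, which the authors had not scaled, and all 6 columns were used. The paper's legend counts fewer IFN-γ tumors than the labels hold, and for the panel of upregulated genes also fewer controls. It does not name any tumor as left out, and each group mean here includes all 3 tumors. The submitters' processing notes name HISAT2 and mm10; the counter, the annotation and the strandedness are not given in the sources used here, so reads of overlapping genes are uncertain. TMM-scaled CPM values were derived from these counts. Genes passing edgeR's default filter were tested with edgeR 4.0.16 in R 4.3.3 (quasi-likelihood test, Benjamini-Hochberg adjustment over all genes tested, threshold 0.05, no covariates). The SE is the log2 fold change divided by the square root of F, and the 95% interval uses it. Poisson intervals (SciPy 1.17.1) cover counting error only. Totals were 15759300 to 17559680 counts per tumor.

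Alternatives were DESeq2 1.42.0, limma 3.58.1 (voom), other scalings and filters, a replicate block and leaving out each tumor, and, added after seeing the data, scaling to leukocyte markers and ratios to Zbtb46. The script was tested on simulated data. Coordinates and exon lengths are from GENCODE (GRCm38), which held 99.4% of the identifiers, and promoters from RefSeq. The members, the subset lists and the marker lists were chosen with earlier results of these data known. Beside the members, genes were named that passed the threshold or were among the 3 most abundant of their list. The ligands, Cd207, the lymph node genes and the genes called only without IFN-γ tumor 3 were named after their values were seen.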

Additional observations from a re-analysis of the deposited data

How the results depend on the processing

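The count of members past the threshold was 0 under every alternative run. Over the members' log2 fold changes, 131 of the 140 values kept their direction and 9 reversed. Leaving out 1 tumor at a time gave -0.10 to 0.36 for Ccr7 and -0.17 to 0.37 for Siglech, and scaling to the leukocyte markers, added after seeing the data, gave -0.26 for Ccr7, -0.14 for Fscn1 and -0.36 for Siglech, with 0.013 for the members' median and 29 genes lower. The genes past the threshold, 12 higher and 5 lower in the reported fit, were 125 and 71 with DESeq2 and 150 and 70 without the filter on low counts, 7 were higher with library size only, and 3 were lower with limma-voom. Without 1 tumor they ran from 4 to 381 higher and from 2 to 112 lower, both highest without IFN-γ tumor 3. The cause of these shifts was not tested beyond the settings themselves.

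With the replicate number as a block, 5 genes were higher and 2 lower, and the smallest adjusted p of a member was 0.598. Same-numbered tumors showed no shared deviation (correlations of -0.205, -0.0135 and -0.214), and the number was treated as a name only. All 10 members passed the filter, so the exact test for low members gave no value.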
